A study of Mus musculus with 13 samples.

Results

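The regions described here are promoters that were accessible in all 3 tissues and both genotypes of the study. They were chosen by their peak ranks: in each of 12 ATAC-seq libraries the 50000 regions with the highest −log10 q, then fold (tags at the summit over the local background), were kept on chromosomes 1 to 19 (chromosome 2 only below 75 Mb), the lists were merged, and a merged region was a member when all 12 lists overlapped it and a protein-coding transcript start of GENCODE M21 lay within 1 kb. Of 112414 merged regions, 15167 had such a start, and 11014 of these were members. They carried the starts of 11448 of 19442 protein-coding genes (58.9%). Presence in the lists was therefore the rule itself and is given below as a description.

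ATAC-seq marks DNA that the Tn5 transposase can reach. Cells came from embryos at E12.5 on the B6CBAF1 background, taken from the forebrain (FB) or from the distal (DFL) or proximal (PFL) part of the forelimb, and were either wild type (wt) or homozygous for allele 542. In this allele, a line from 1 founder, a single copy of the digit enhancer element II1 with an HBB promoter and a LacZ reporter was inserted into T-DOM, the regulatory domain that lies on the telomeric side of the HoxD cluster. Each of the 6 groups held 2 replicates from separate pools of several embryos, with 50000 cells per library. No embryo was treated, and the dissected pieces hold all the cell types of a limb or forebrain.

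A promoter is the stretch at a gene's start where general transcription factors and RNA polymerase II assemble. In mammals, the promoters of genes that every cell uses usually lie in CpG islands, short stretches rich in CG dinucleotides, and tend to be free of nucleosomes whether or not the gene is strongly transcribed. Many developmental regulators also start in CpG islands, where Polycomb group proteins can hold them silent while the DNA stays reachable, so that an open promoter is not in itself a sign of transcription.

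To show what such promoters look like, the 200 bases before the start are given for some members. Of these, 4 were taken because their start windows held many of 16 kinds of short motifs, 5 or 6 each. Other members with as many kinds may have been left out. The printed stretch can hold fewer kinds than the window, as at Denr and Dohh, with 3 against 6. Also given are 1 of the 10 members with the highest mean fold and 1 of the 10 steadiest. From the largest differences between forebrain and forelimb, 1 member is given in either direction. The stretches run 5′ to 3′ along the gene, from the RefSeq sequence of GRCm38.p6, the assembly behind mm10. Capitals mark motif matches on either strand, and overlapping matches run together.
Cfdp1 (chr8:111854292-111854491, minus strand): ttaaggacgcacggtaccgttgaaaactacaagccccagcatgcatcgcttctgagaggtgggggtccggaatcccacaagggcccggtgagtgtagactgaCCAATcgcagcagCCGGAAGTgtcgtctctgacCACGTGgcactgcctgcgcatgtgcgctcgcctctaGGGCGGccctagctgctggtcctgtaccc
Denr (chr5:123906975-123907174, plus strand): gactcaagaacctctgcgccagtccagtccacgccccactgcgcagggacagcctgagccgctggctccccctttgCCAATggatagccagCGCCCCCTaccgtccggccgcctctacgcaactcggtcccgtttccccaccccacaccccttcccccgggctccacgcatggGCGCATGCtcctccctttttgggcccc
Dohh (chr10:81384228-81384427, plus strand): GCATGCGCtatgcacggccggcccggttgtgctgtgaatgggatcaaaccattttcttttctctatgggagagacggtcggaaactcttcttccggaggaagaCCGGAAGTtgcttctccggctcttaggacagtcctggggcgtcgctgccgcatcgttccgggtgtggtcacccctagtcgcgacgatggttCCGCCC
Angel1 (chr12:86726461-86726660, minus strand): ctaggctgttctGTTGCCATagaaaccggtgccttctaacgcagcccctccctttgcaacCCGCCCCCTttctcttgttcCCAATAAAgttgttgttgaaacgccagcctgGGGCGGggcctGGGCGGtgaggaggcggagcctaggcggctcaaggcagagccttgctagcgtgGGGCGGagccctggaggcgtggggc
Zfp128 (chr7:12880977-12881176, plus strand): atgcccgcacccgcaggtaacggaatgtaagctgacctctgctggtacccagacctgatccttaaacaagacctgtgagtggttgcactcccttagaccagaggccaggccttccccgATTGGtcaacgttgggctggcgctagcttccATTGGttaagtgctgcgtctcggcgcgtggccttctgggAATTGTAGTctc
Pa2g4 (chr10:128565988-128566187, minus strand): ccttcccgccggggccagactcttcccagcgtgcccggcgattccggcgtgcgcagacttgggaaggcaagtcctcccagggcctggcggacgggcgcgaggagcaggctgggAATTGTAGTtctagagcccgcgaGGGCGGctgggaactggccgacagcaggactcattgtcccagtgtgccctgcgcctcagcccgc
Rufy3 (chr5:88583313-88583512, plus strand): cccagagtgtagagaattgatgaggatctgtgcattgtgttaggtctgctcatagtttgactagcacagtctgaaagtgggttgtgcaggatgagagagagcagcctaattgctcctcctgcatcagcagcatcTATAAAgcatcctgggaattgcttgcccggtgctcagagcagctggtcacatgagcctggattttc
Neurod4 (chr10:130280241-130280440, minus strand): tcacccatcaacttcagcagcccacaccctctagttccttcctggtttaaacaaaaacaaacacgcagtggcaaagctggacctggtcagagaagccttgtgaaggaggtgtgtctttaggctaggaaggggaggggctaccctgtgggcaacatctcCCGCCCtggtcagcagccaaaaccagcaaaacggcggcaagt
Counted back from the start at −1, Cfdp1 held a CCAAT box at −98, an ETS match at −85, an E-box at −65 and a GC box at −29. Denr held a CCAAT box at −124 and an NRF1 match at −27. Dohh held an ETS match at −97 between an NRF1 match at −200 and a GC box at −6. In the stretch of Pa2g4 stood a RONIN/ZNF143 match at −87, and in that of Rufy3 only a TATA box at −66. The stretch of Denr was 68.5% G or C with 14 CG dinucleotides, and that of Rufy3 49.5% with 1.

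The composition of the members was then compared with other genes over 300 bases at 1 start per gene, from 250 before to 50 after it. Genes with a member had a median GC content of 61.3%, against 55.3% for the 2137 genes whose best region was in 1 to 11 lists, 46.7% for the 5857 genes with no region in the lists and 56.3% for all genes. The ratio of observed to expected CG dinucleotides had a median of 0.774 in member genes, 0.398 in the partly listed genes and 0.161 in the unlisted genes. It was over 0.6 in 74.6%, 29.2% and 4.64% of them. Around their own summits, the members stood at 65.7% GC and a ratio of 0.828, and the 7677 regions in all 12 lists without a coding start at 50.7% and 0.329. These are shares and medians over genes, which are not replicates, and no test was made on them.

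The short motifs of general promoter factors were found at higher shares in member genes. The ETS letters CCGGAAGT stood in 8.05% of member windows, 0.666% of unlisted windows and 5.08% of all promoters of this length. The NRF1 letters GCGCATGC stood in 5.46%, 0.666% and 3.55%, and the GC box GGGCGG, read by SP and KLF factors, in 65.9%, 11.4% and 46.7%. The YY1 letters AAGATGGC were in 4.53% of member windows and 1.09% of unlisted ones, of 3.11% in all, and the CREB/ATF site TGACGTCA in 3.77% and 0.785%, of 2.57% in all. In the other direction, the TATA box TATAAA was in 6.65% of member windows, 23.0% of unlisted ones and 12.2% of all. The homeodomain (TAATTA), AP-1 (TGANTCA), SOX (ACAAAGA) and HOX13 (CAATAAA) letters went the same way. They were in 2.04%, 3.95%, 3.52% and 2.54% of member windows and in 9.60%, 11.2%, 7.77% and 6.59% of unlisted ones. The CCAAT box, CCAAT, differed little, at 38.2%, 39.5% and 37.9%. A short GC-rich word is met more often in GC-rich windows, and an AT-rich word less often. How much of these shares the GC content accounts for was not tested. A match is a description of the letters, not of a bound site.

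Regions near coding starts and other regions were shared to different degrees. Of the 15167 promoter regions 72.6% were in all 12 lists and 5.02% in 1 list only. Of the other regions 7.89% were in all 12 lists and 23.8% in 1. Since the rule uses these lists, a library that it did not use, an earlier wt DFL sample analysed anew by the authors, serves as a separate look. Of the 11014 members, 10940 (99.3%) overlapped its own 50000 strongest regions and 11000 (99.9%) any of its regions. Among regions without a coding start that were in all 12 lists the shares were 95.1% and 99.7%, and among the 395 promoter regions in 11 lists 90.4% and 99.7%. The member of highest fold missing from its strongest regions was that of Cwf19l2, a splicing-related factor, at a mean fold of 20.3.

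**Figure D1:**
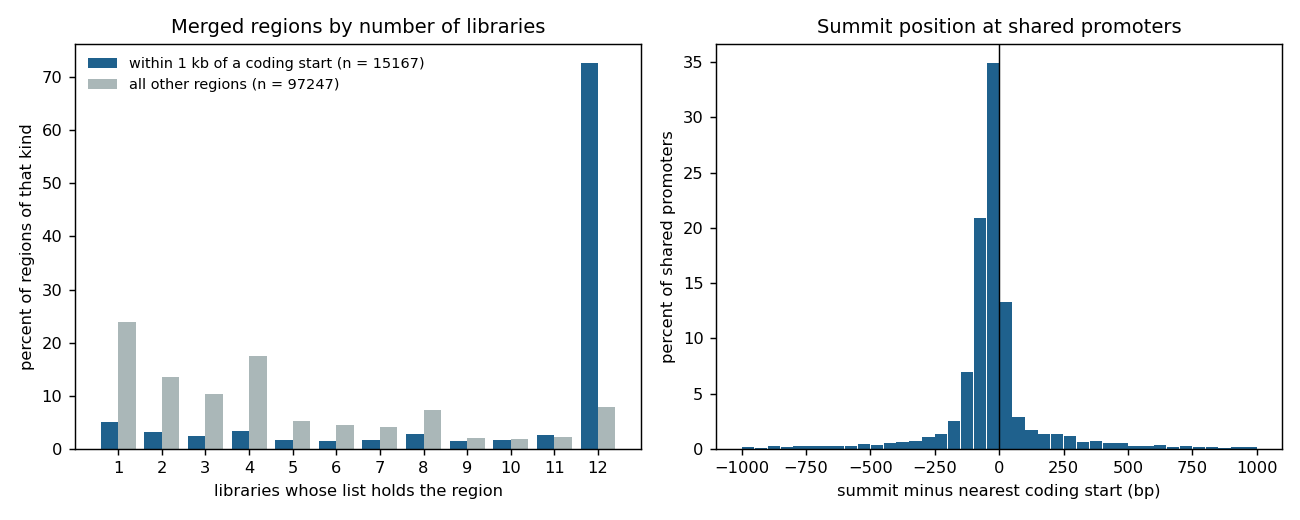
Left, percent of merged regions (y axis) by the number of libraries whose list holds them (x axis), for regions within 1 kb of a coding start and all other regions: 72.6% of the former and 7.89% of the latter are in all 12. Right, percent of the 11014 members (y axis) by the distance in bp, along the gene's strand, from the nearest coding start to the median summit (x axis, bins of 50 bp): most summits lie just before the start.

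The summit, the point of most tags in a region, lay close to the start in every library. The median of the strongest summits was between 32 and 34 bp before the nearest coding start in the 12 libraries, with 70.1% to 71.4% of the members within 100 bp. Within a member, the strongest summits of the 12 libraries spanned a median of 32 bp, and in 70.4% of members no more than 50 bp. In 613 members (5.57%) they spanned more than 500 bp. In the shared regions without a coding start the median span was 40 bp, and 7.06% of them passed 500 bp. Most members, 10632 of 11014 (96.5%), covered a coding start. A single gene started at 9799 members, and 719 held a head-to-head pair of genes, whose starts point away from each other. Such pairs made up 16.5% of the genes with a member, 2.53% of the partly listed genes, 0.99% of the unlisted genes and 10.3% of all.

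The lists that set the members can be followed by the roles of the genes. Genes of basic cell functions were nearly all among them. All 34 subunits of mitochondrial complex I had a member, as did the 27 Mediator subunits, the 12 subunits of RNA polymerase II, the 19 genes of replication licensing, the 20 cytosolic aminoacyl-tRNA synthetases and the 7 genes of the TCP1 chaperonin. Ribosomal protein genes had one in 75 of 78 cases, and those without were Rpl3l, Rpl10l and Rpl39l, which encode tissue-restricted copies. Of the proteasome genes 34 of 36 had one, and those without were Psma8, of the testis, and Psmb11, of the thymus. For Polycomb group genes it was 23 of 25, for chromatin remodellers 20 of 22, and for zinc finger genes named Zfp 308 of 355.

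Developmental genes were split. Of 31 forebrain transcription factor genes 14 had a member, among them Emx2, Lhx2, Sox2 and Dlx1, and of 31 limb mesenchyme factors 15 did, among them Prrx1, Twist1, Gli3 and Sox9. Their other starts were mostly in some of the lists, 16 and 14 of them. Of 39 Hox genes 1, Hoxa7, had a member, and 21 were in 1 to 11 lists. Stretches of the Hox loci were not analysed here, so that these counts do not cover all Hox genes alike. Genes in the lists for other cell types and lineages had a member less often than all genes, at 58.9%. It was 2 of 11 skeletal muscle genes and 5 of 18 blood and endothelial genes. Of interleukins it was 4 of 35, of olfactory receptors 1 of 833 and of vomeronasal receptors 1 of 326. The 15 ectoderm genes had no member and 8 were in some lists. A gene that is in no list here is one for which no region was used, which does not show that its promoter was closed.

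**Figure D2:**
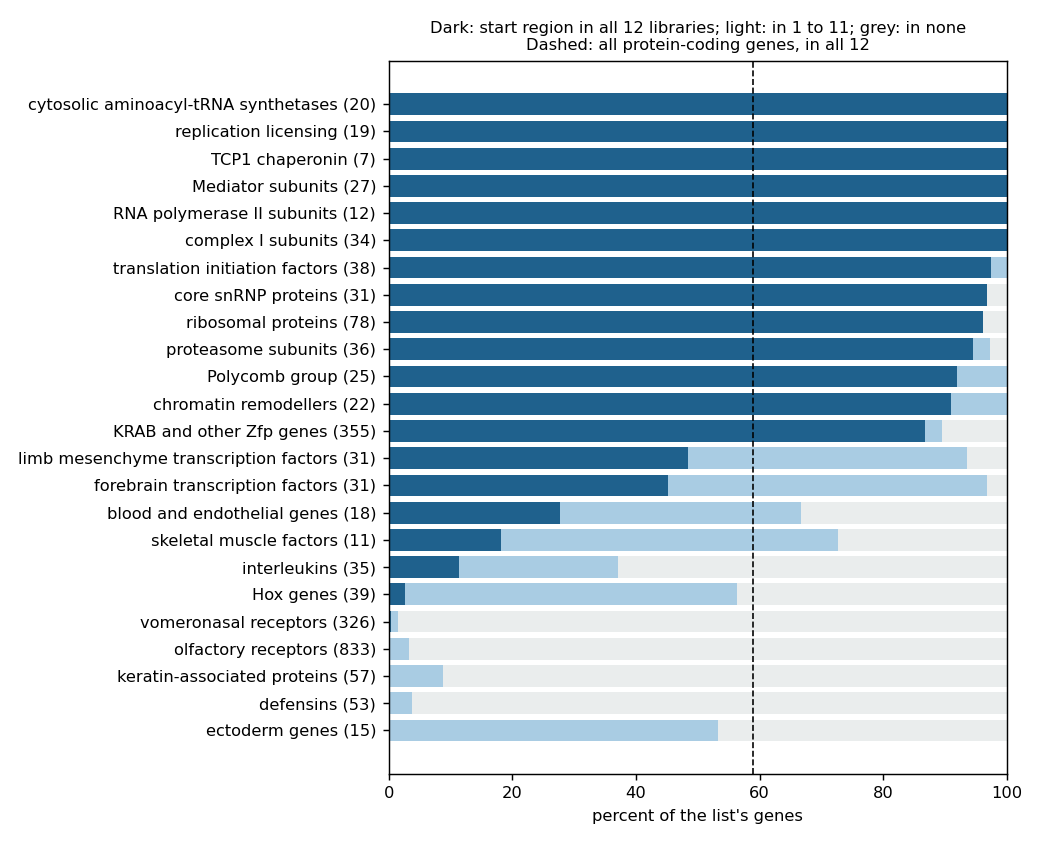
Percent of the genes of each of 24 lists (number of genes in brackets) whose start region is in all 12 libraries (dark), in 1 to 11 (light) or in none (grey), with the share over all protein-coding genes, 58.9%, as a dashed line. The lists of basic cell functions lie between 94.4% and 100%, the transcription factor lists of forebrain and limb at 45.2% and 48.4%.

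The labels of the tissues were looked at through genes that define them. The Hoxa13 start was listed in all 8 forelimb libraries and in no forebrain library, with a mean fold of 9.29 ± 0.601 (SD, n = 4) in DFL and 5.51 ± 0.989 (n = 4) in PFL. Hoxd13 was listed in the 4 DFL libraries at 9.34 ± 0.477, in 3 PFL libraries and in no forebrain library. The start of the muscle gene Myog was listed in the 4 PFL libraries only, but Myod1 was listed in 4 DFL, 3 PFL and 3 FB libraries and Myf5 in 2 DFL libraries and 1 PFL library. Some other markers did not follow their tissue at the start. The distal marker Msx2 had a mean fold of 10.7 in FB and 6.71 in DFL. Sall1, also distal, was higher in DFL than in PFL, at 6.51 and 5.50, but stood at 6.54 in FB. The proximal marker Meis1 was higher in PFL than in DFL, at 9.001 and 7.45, but stood at 9.97 in FB. Osr2, also proximal, had 8.01 in DFL against 7.27 in PFL. The proximal marker Shox2 was listed in 1 DFL library, 1 PFL library and 2 FB libraries, and for Meis2 no region was used. Prrx1, of limb mesenchyme, had 7.25 in FB, 5.38 in DFL and 4.80 in PFL. Twist1, of the same set, did follow the limb, at 10.7 in DFL, 10.1 in PFL and 4.88 in FB. Prrx2 was listed in 3 DFL libraries, 4 PFL libraries and 1 FB library, and for Tbx5 no region was used. The forebrain markers Emx2, Lhx2, Neurog2 and Dlx1 were all members and so were listed in every library. For the forebrain marker Pax6 no region was used.

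Fold here is the authors' value for a summit, the tags under it plus 1 over the local background plus 1. The members were strong regions in every library, with a median fold between 12.6 and 15.0. Their median percentile was 91.7 to 93.9 of all regions of the library, and they took up 22.6% to 23.4% of each list. The rule in part sets this, as it kept only the 50000 strongest regions of each library. For the shared regions without a coding start, chosen by the same lists, the median percentile was 78.5 to 85.4. The median number of tags under the summit ran from 132 to 351. The libraries differed in depth, with 51.4 to 70.7 megatags (Mtags) in forebrain and 37.5 to 54.5 Mtags in forelimb. Over the 12 libraries the mean fold of a member had a median of 13.7, and 10% of members were under 7.18 and 10% over 19.7. For the shared regions without a coding start the median was 8.97.

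The highest mean folds belonged to genes of varied basic functions. Taf7, a subunit of the TFIID factor that recognises promoters, stood at 28.7 ± 2.39 (SD, n = 12), from 25.2 to 32.2. The zinc finger genes Zfp560, Zfp960 and Zfp128 followed at 27.9, 27.3 and 26.8, then Med23 of the Mediator complex at 26.4 and Chd8, a chromatin remodeller, at 26.3. Mccc2, a mitochondrial enzyme of leucine breakdown, stood at 26.2, Kifap3, which joins kinesin to its cargo, at 26.1, and Cfdp1 and Ttc1 both at 26.1. These values were all chosen from the same libraries and are given as a description.

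The members also varied little. To compare libraries, each log2 fold was centred on the median of the 18691 regions in all 12 lists of that library. The SD of the centred log2 fold over the 12 libraries had a median of 0.13 in members and 0.26 in shared regions without a coding start. These sets also differ in strength, with a median mean fold of 13.7 and 8.97. Among members of mean fold 7.18 to 8.90 the median SD was 0.21, and from 8.91 to 10.6 it was 0.18. The steadiest member was that of Gnao1, the alpha subunit of a G protein of neurons, with an SD of 0.025. Its fold ranged from 9.99 to 11.02 in forelimb and was 12.3, 12.1, 11.5 and 11.9 in forebrain, but its tags under the summit, per megatag (Mtag) of the library, were 8.46 in forebrain and 4.99 in forelimb, over a local background 1.53 times as high in forebrain. Among the other 9 of the 10 steadiest, Pa2g4, a growth-related RNA-binding protein, ranged from 16.6 to 18.1 in forelimb, and Mdm4, an inhibitor of p53, from 17.9 to 21.3. Ecsit, an assembly factor of complex I, ranged from 19.6 to 22.4 in forelimb. In forebrain, Pa2g4 ranged from 18.8 to 20.7, Mdm4 from 21.2 to 23.8 and Ecsit from 24.55 to 26.1. The small spread of these promoters is thus that of the centred values.

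At the edge of the rule, the member closest to the limit was that of Gli1, a transcription factor of Hedgehog signalling, which ranked 49978 in wt FB replicate 2 with a fold of 3.24 there. Lama3, Zfp867, Grm2 and Dll1 ranked between 49897 and 49957 in their weakest libraries. Just outside, Vstm2b ranked 50014 in 542 PFL replicate 1 with a fold of 3.09, and Cenpv, Arhgef2, Fbxo16 and Ak7 ranked between 50022 and 50096 in the 1 library that missed them. Of the 395 promoter regions in 11 lists, between 11 and 59 were missing from any 1 library, the fewest from wt DFL replicate 1 and the most from 542 PFL replicate 2. That library had the fewest tags, but wt FB replicate 2, with 56.6 Mtags, missed 52. The cause was not tested.

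Forebrain was first compared with forelimb, over 4 and 8 libraries. At a false discovery rate of 0.05 in limma, fitted on all 18691 shared regions with tissue and genotype as terms, 830 members were higher and 2281 lower in forebrain, out of 11014 tested. The background over all shared regions was 13% higher and 20.1% lower. Members were thus called higher at 7.54%, against 20.8% of the shared regions without a coding start, and lower at 20.7% against 19.3%. The differences were small: the median size was 0.33 on the log2 scale for those higher and 0.28 for those lower, and 10 and 47 of them passed 1. In whole tissue, a smaller share of cells with an open promoter and less accessibility in each cell cannot be told apart. The groups of libraries did not overlap, after centring, at 383 of the 830 and 1165 of the 2281. With or without a call, they did not overlap at 399 and 1221 members, over a background of 5.79% and 10.5% of the shared regions.

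The balance of higher and lower members depended on the scale. Without centring, the median log2 fold of the shared regions was 0.19 higher in forebrain than in forelimb, and 4588 members were called higher and 615 lower. After quantile normalization there were 1121 and 1714. Taking the tags under the summit, which the fold and its p-value give back, in place of the fold, 2795 were higher and 2316 lower, over a background of 24.7% and 22.5%. Of the 830 members higher by fold, 594 were called higher by tags and 70 had the opposite sign, and of the 2281 lower by fold, 1267 were called lower by tags and 534 had the opposite sign. All differences below are relative to the median of the shared regions.

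Of the called members whose groups of libraries did not overlap, those with the largest differences are given by name, so that the separation of their groups comes from the choice. The Rufy3 promoter, of a gene that acts in axon growth, stood at folds of 18.9 and 17.8 in wt and 18.6 and 18.99 in 542 forebrain, and between 4.29 and 8.16 with a median of 6.18 in the 8 forelimb libraries. No forelimb library reached a forebrain value, and the difference was 1.41 ± 0.10 on the log2 scale (SE, adjusted p = 1.7e-07), with 13.6 tags per Mtag in forebrain and 1.43 in forelimb. Kif1a, the motor that carries synaptic vesicle precursors, stood at 12.1, 11.2, 11.6 and 12.4 in forebrain and between 3.97 and 6.39 in forelimb (difference 1.12 ± 0.12, adjusted p = 4.4e-06). The strongest summits of Kif1a spanned 1055 bp over the 12 libraries, so its folds do not all come from the same point. Dclk1, a kinase that binds microtubules, stood at 16.3, 15.4, 16.8 and 16.1 in forebrain and between 4.63 and 9.44 in forelimb. As members, these promoters were also listed in every forelimb library.

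The other 5 of the 8 rises named by this rule lay between 1.03 and 1.33 on the log2 scale. Wdr35, a subunit of the transport system of cilia, was higher by 1.33 ± 0.13 (adjusted p = 2.9e-06), at 20.8, 21.5, 21.2 and 22.7 in forebrain and 4.61 to 9.84 in forelimb. Pcdhac1, a clustered protocadherin of the neuronal surface, was higher by 1.26, Schip1, a protein of axon nodes, by 1.12, Trim2, a ubiquitin ligase, by 1.04, and Pde4d, a phosphodiesterase of cyclic AMP, by 1.03. By tags these 8 promoters differed by 1.35 to 3.08 on the log2 scale, in the same direction. At Wdr35 the local background was 1.04 times as high in forebrain as in forelimb, and at Rufy3 3.42 times. At Trim2 the strongest summits of the 12 libraries spanned 1074 bp, so its values do not all come from the same point.

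The falls in forebrain were named in the same way. Neurod4, a proneural transcription factor, stood at 3.91, 5.66, 4.67 and 5.42 in forebrain and between 12.7 and 18.2 with a median of 15.8 in forelimb. All forebrain libraries lay below all forelimb libraries, and the difference was -1.85 ± 0.10 (adjusted p = 1.2e-08). Edar, the receptor through which skin appendages are placed, stood at 5.15, 4.47, 4.43 and 4.02 in forebrain and between 11.7 and 15.6 in forelimb (difference -1.80 ± 0.09, adjusted p = 4.3e-09). Sntg1, a syntrophin, stood at 5.97, 6.34, 5.73 and 5.73 against 14.8 to 16.5. Its tags per Mtag, however, were 2.82 in forebrain and 3.06 in forelimb, over a local background 2.63 times as high in forebrain. Its strongest summits spanned 1170 bp over the 12 libraries, so these values do not all come from the same point. The Sntg1 region was 1802 bp wide on average in forebrain and 644 bp in forelimb. Mr1, which presents vitamin metabolites to T cells, fell by 1.53 with 0.702 tags per Mtag in forebrain and 2.17 in forelimb, where the background was 0.867 times as high in forebrain.

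Pnma2, Slc9b2, a sodium/proton exchanger, and Nxph1, a ligand of neurexins, were also named by this rule, with differences of -1.42, -1.42 and -1.40. By tags these 7 promoters were lower in forebrain too, by 0.31 for Sntg1 to 1.80 for Mr1 on the log2 scale. The fall of fold was larger than that of tags at 5 of the 7 and smaller at Mr1 and Slc9b2. At Nxph1 the strongest summits of the 12 libraries spanned 628 bp.

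**Figure D3:**
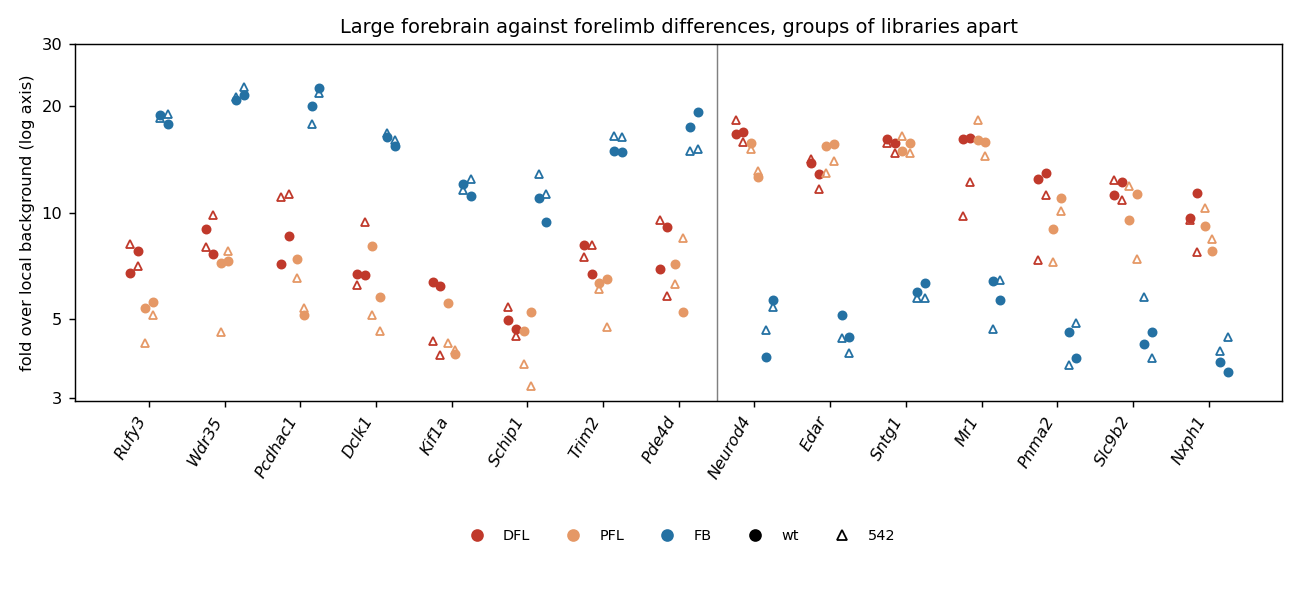
Fold over local background (y axis, log scale) in each of the 12 libraries at called members whose forebrain and forelimb libraries did not overlap, the 8 with the largest rise in forebrain (left of the line) and 7 of those with the largest fall (right), one point per library, coloured by tissue, filled circles wt and open triangles 542. Forebrain points lie above all forelimb points on the left, as at Rufy3 (17.8 to 18.99 against 4.29 to 8.16), and below them on the right.

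Transcription factor promoters showed how far fold and tags can part. Of the 14 forebrain factor promoters among the members, 6 were lower in forebrain by fold and 8 did not pass, where 20.7% of all members were lower, with a median difference of -0.19, against -0.05 over all members. By tags 11 of the 14 were higher in forebrain and 3 did not pass, where 24.7% of the shared regions were higher, with a median of 0.92, against 0.04 over all members. Sox2, of neural progenitors, stood at folds of 8.07, 7.81, 6.08 and 6.63 in forebrain and between 4.05 and 6.99 in forelimb, overlapping ranges with a difference of 0.22 ± 0.13 (adjusted p = 0.21). Its tags per Mtag were 4.86 in forebrain and 1.09 in forelimb, a difference of 1.98 on the log2 scale (adjusted p = 1.4e-19), over a local background 3.68 times as high in forebrain.

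At Neurog2 and Dlx1 the measures went opposite ways. Neurog2, which drives cortical neurons to form, was lower by fold, at 7.18, 8.51, 8.04 and 8.02 against 8.42 to 11.3 (difference -0.47 ± 0.10, adjusted p = 0.002), and higher by tags, at 5.86 against 2.23 per Mtag. Dlx1, of the ventral forebrain, was lower by fold by 0.69 and higher by tags by 0.48, with a region 1539 bp wide on average in forebrain and 834 bp in forelimb. Lhx2 was lower by fold by 0.35, with 8.36 and 7.85 tags per Mtag.

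Of the 15 limb factor promoters, 3 were higher and 4 lower in forebrain by fold, where 7.54% and 20.7% of all members were, and 5 higher and 6 lower by tags, where 24.7% and 22.5% of the shared regions were. Twist1, a mesenchyme factor, fell in forebrain on both measures. Its fold was 5.05, 5.14, 4.77 and 4.57 in forebrain and between 8.80 and 11.6 in forelimb (difference -1.28 ± 0.10, adjusted p = 2.1e-07), with 1.41 and 6.30 tags per Mtag and a local background 0.472 times as high in forebrain. Tbx3 was lower by fold by 0.25 and by tags by 1.15, while Sall3 was higher by 0.40 and 0.94 and Prrx1, an early limb mesenchyme factor, by 0.34 and 0.45. Hoxa7, the only Hox member, was higher in forebrain by fold, at 9.57, 5.39, 6.43 and 7.08 against 3.53 to 5.05 (difference 0.52 ± 0.12, adjusted p = 0.0044), and lower by tags, at 0.87 against 2.08 per Mtag, over a background 0.23 times as high. Which of the measures tracks gene activity was not tested.

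**Figure D4:**
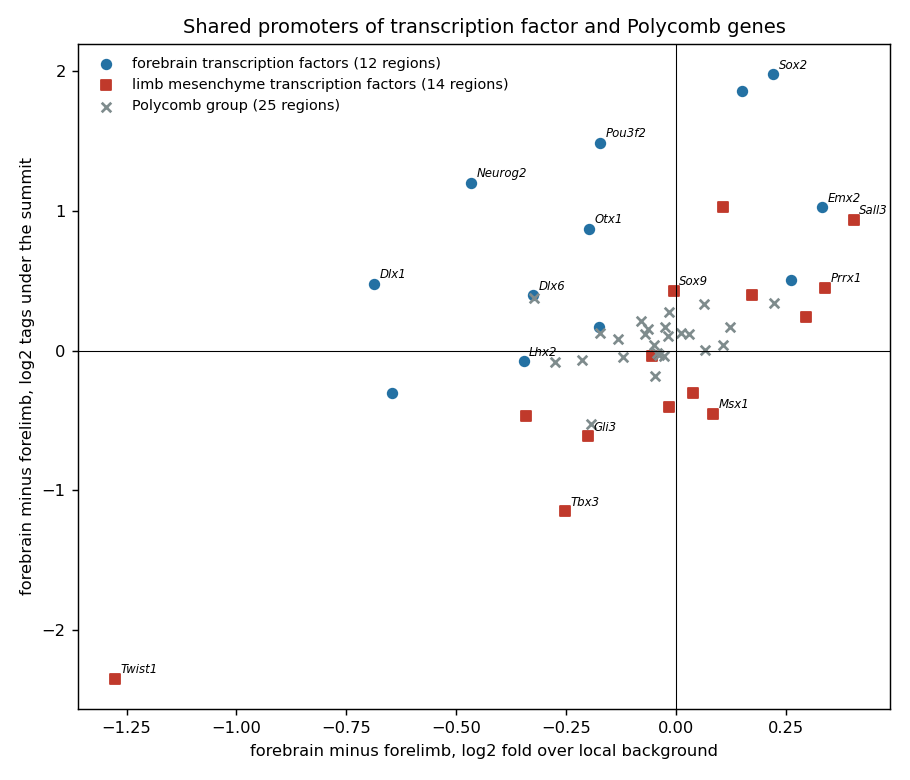
Each point is a member promoter of a forebrain factor (circles, 12 of the 14), a limb mesenchyme factor (squares, 14 of the 15) or a Polycomb gene (25 crosses), by its forebrain minus forelimb difference in log2 fold over local background (x axis) and in log2 tags under the summit (y axis). Sox2 lies at 0.22 and 1.98, Twist1 at -1.28 and -2.35, and several forebrain factors lie left of 0 but above it.

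Genes of basic functions were called at shares on both sides of that of all members, 28.2% for higher and lower together, with 13.9% of ribosomal and 31.4% of complex I regions. Of the 79 ribosomal protein regions 3 were higher and 8 lower in forebrain by fold, of 35 complex I regions 3 and 8, of 35 proteasome regions 1 and 6, and of 27 Mediator regions 3 and 3. The median differences of these lists lay between -0.04 and -0.01. Rpl22l1, the highest of the ribosomal regions at a mean fold of 24.8, differed by -0.12 (adjusted p = 0.023), and Psmb2, the highest of the proteasome, by -0.11 (adjusted p = 0.08). Of the 319 zinc finger regions, 24 were higher and 67 lower. Of the 25 Polycomb regions, 4 were lower, at Eed, Ring1 and both promoters of Pcgf5, by 0.17 to 0.32, of which only Eed passed after quantile normalization and 1 of the Pcgf5 promoters changed sign without scaling. The 21 others, with Ezh2 at -0.06 and Suz12 at 0.01, did not pass. Ring1 was higher by tags, by 0.38 (adjusted p = 0.0012).

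Distal was next compared with proximal forelimb, 4 libraries each. In limma, 63 members were higher and 101 lower in DFL, at 0.572% and 0.917% of the members, over a background of 1.87% and 1.37% of the shared regions. The groups did not overlap at 55 and 86 of them, and the largest difference was 0.96 on the log2 scale. With or without a call, they did not overlap at 215 and 518 members, over a background of 3.84% and 4.42%. Unscaled values gave 126 higher and 35 lower, and quantile normalization 83 and 80, so that the balance rests on the scale. With any 1 library left out, 27 to 57 were higher and 41 to 81 lower.

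Among the promoters higher in DFL, Myo16, an unconventional myosin, stood at 13.5, 14.9, 15.1 and 18.9 in DFL and 8.20, 6.18, 8.51 and 8.19 in PFL. The groups were apart, and the difference was 0.96 ± 0.13 (adjusted p = 0.0012). Cdhr1, a cadherin-related protein, stood at 7.66, 10.3, 8.48 and 10.9 against 5.38, 4.67, 4.82 and 4.17 (difference 0.91 ± 0.13, adjusted p = 0.0014). Both were high in forebrain as well, with means of 13.9 and 12.4. Gramd1b, a carrier of cholesterol, Rab26, a small GTPase of vesicles, Acpp, a phosphatase, and Aass, an enzyme of lysine breakdown, followed with 0.83, 0.73, 0.71 and 0.69. By tags all but Aass passed (adjusted p = 0.13).

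Among those lower in DFL, Sulf1, an enzyme that trims sulphate from heparan chains, stood at 5.04, 4.52, 4.64 and 4.74 in DFL and 8.29, 7.92, 10.3 and 8.56 in PFL. No DFL value reached a PFL value, and the difference was -0.93 ± 0.11 (adjusted p = 0.00029), but by tags it was -0.29 (adjusted p = 0.18). The strongest summits of Sulf1 spanned 563 bp over the 12 libraries. Pkdcc, a kinase of the secretory pathway needed for long bones, stood at 6.60, 7.74, 3.94 and 5.71 against 7.88, 10.1, 10.1 and 10.1 (difference -0.75 ± 0.16, adjusted p = 0.021). Its difference by tags was larger, -1.59 (adjusted p = 4.1e-15). B3galt2, Kbtbd12 and Pam were lower by fold as well, with -0.69, -0.67 and -0.65, of which B3galt2 and Kbtbd12 also passed by tags. Among the limb factors, Sall3 passed, at 6.48 in DFL and 4.32 in PFL (difference 0.54, adjusted p = 0.034).

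Lastly 542 was compared with wt, 6 libraries each over the 3 tissues. In limma, 25 members were higher and 11 lower in 542, at 0.227% and 0.0999% of the members, over a background of 0.326% and 0.182%, and the groups did not overlap at 18 and 5. With or without a call, they did not overlap at 71 and 11 members, over a background of 0.465% and 0.177%. Without scaling there were 5 and 15, and after quantile normalization 10 and 11. With any 1 library left out, 6 to 21 were higher and 4 to 14 lower. The called members lay on 16 chromosomes, with 7 on chromosome 11 and 2 on the part of chromosome 2 that was used. Of all 11014 members, 910 lay on chromosome 11 and 355 on that part of chromosome 2. The wt reads were aligned on mm10 and the 542 reads on a genome rebuilt with the insertion, and the 542 libraries were shallower in each tissue on average, so that genotype, mapping genome and line cannot be told apart here.

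Among the members whose groups did not overlap, the largest difference was at Ppih, a cyclophilin of the spliceosome. It stood at 17.2 and 17.7 in wt DFL, 18.4 and 16.5 in wt PFL and 20.6 and 18.8 in wt FB. In 542 it stood at 6.82 and 7.55, 5.74 and 4.99, and 7.09 and 7.54 in the same tissues. The 6 libraries of 542 lay below the 6 of wt, and the difference was -1.41 ± 0.08 (adjusted p = 1.6e-07), or -1.65 by tags. Mrpl55, a protein of the mitochondrial ribosome, lay between 10.8 and 15.1 in wt and between 5.53 and 8.36 in 542 (difference -0.86 ± 0.11, adjusted p = 0.0012), and Gtf3a, the factor of 5S ribosomal RNA genes, from 9.33 to 14.8 and from 6.39 to 9.03 (difference -0.63 ± 0.09, adjusted p = 0.0051). Trappc12, of which the adjusted p was 0.062 after quantile normalization, and Pttg1 were lower by 0.57 and 0.29.

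In the other direction, Dynlt1a, a light chain of dynein, lay between 5.25 and 9.81 in the 6 wt libraries and at 11.1 or more in the 6 of 542, which did not overlap (difference 1.13 ± 0.10, adjusted p = 2.2e-05). Dynlt1f, of the same family, ranged from 5.27 to 10.7 and from 8.99 to 16.2 (difference 0.54 ± 0.10, adjusted p = 0.03). The strongest summits of Dynlt1f spanned 642 bp. The Dynlt1 genes lie as near-identical copies, among which reads may be lost or shared, so these values are uncertain. Abca14, Dnajc28 and Tsfm were higher by 0.66, 0.61 and 0.49. At all 10 promoters the tag counts passed in the same direction. For a difference of genotype effects between tissues, limma called 0 of 11014 members, with a smallest adjusted p of 0.11. An unadjusted p under 0.05 was met at 701 members (6.36%), over a background of 1519 of the 18691 shared regions (8.13%). In fits without 542 PFL replicate 2 or without wt FB replicate 2, limma called 1 member.

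**Figure D5:**
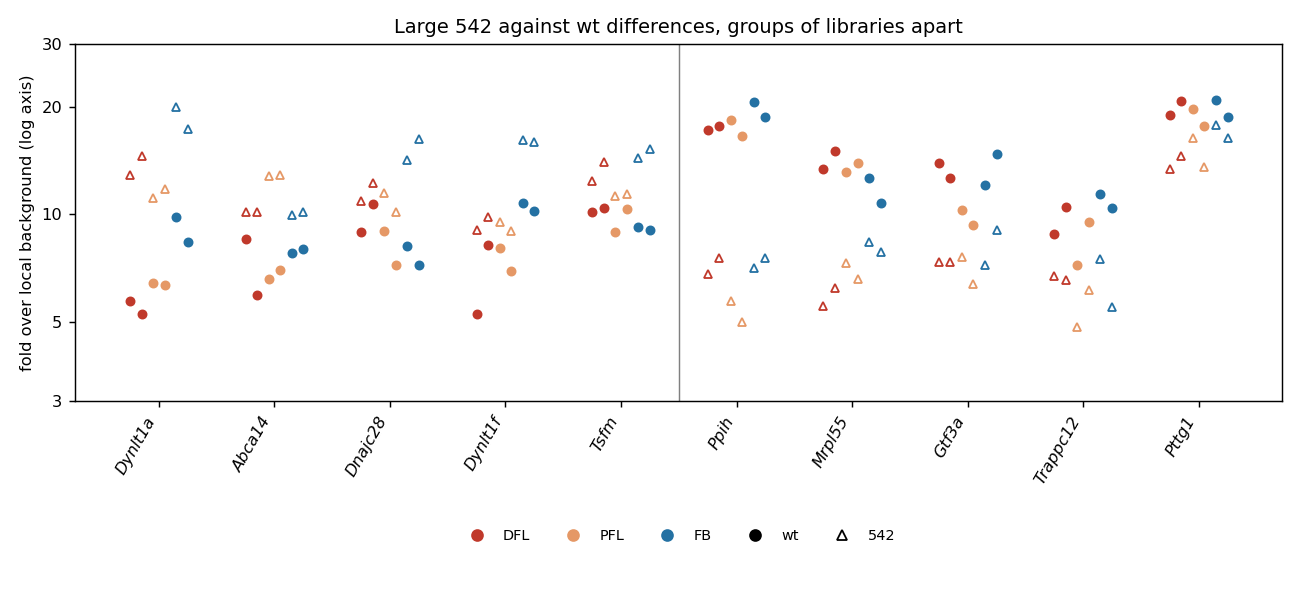
Fold over local background (y axis, log scale) in each of the 12 libraries at called members whose 542 and wt libraries did not overlap, the 5 with the largest rise (left of the line) and the 5 with the largest fall (right) in 542, one point per library, coloured by tissue, filled circles wt and open triangles 542. At Ppih the 6 wt points lie between 16.5 and 20.6 and the 6 points of 542 between 4.99 and 7.55.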

How the data were processed

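Per the methods and labels, the authors trimmed reads with Cutadapt, mapped them with bowtie2 (wt to mm10, 542 to a genome carrying the insertion), removed poorly mapped pairs, mitochondrial reads and duplicates, and called peaks with MACS2 in each of 13 libraries without a control. The deposited fold is a ratio of tags to local background at a summit, the deposited −log10 p and −log10 q are the peak caller's, and the deposited score, which follows the −log10 q, was not used. No normalization between libraries was made. Tags under a summit were solved from fold and −log10 p, for 99.9958% to 99.9993% of the summits of a library, and the total tags of a library from its lowest common background.

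The 12 lists were merged at an overlap of 1 bp, and the strongest region in a member gave its values. Log2 folds were fitted with limma 3.58.1 (trend and robust) in R 4.3.3 with Benjamini-Hochberg adjustment, and checked on simulated data. The value of a difference is given ± SE. Positions are 1-based mm10. Chromosome lengths of the RefSeq assembly fitted all positions. Named members are the 10 highest, the 10 steadiest, the called members with the largest differences whose groups of libraries did not overlap (at most 8, 6 and 5 per direction), those nearest the limit, and members of the transcription factor, Hox and Polycomb lists or the highest of other lists. Other named values were chosen after they were seen. Some of these, in the text and in the figures, are not reported here. The members and lists were chosen with earlier results of these data known. The p-values measure the spread between pools of embryos. Alternatives are given in the closing section.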

Additional observations from a re-analysis of the deposited data

How the results depend on the processing

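The number of members, 11014, was 8639 to 12167 under the 12 other rules tried (rank, distance, overlap, transcript set, libraries) and with any 1 library left out 11031 to 11075. The mean over libraries of the median summit position moved from -33.4 to -6.58 bp when all summits of a region were used. For forebrain against forelimb, members higher and lower were 4588 and 615 without scaling, the former 1982 by −log10 q and 2795 by tags, and 571 to 845 and 1587 to 2208 with 1 library left out. For DFL against PFL they were 126 and 35 without scaling, 200 and 293 by −log10 q, 301 and 371 by tags, the latter 203 with all deposited regions and 37 at a fold of at least 5, and 27 to 57 and 41 to 81 with 1 library left out. For 542 against wt they were 132 and 75 by −log10 q, 211 and 121 by tags, 4 and 5 without trend and robust, the former 10 after quantile normalization and 5 without scaling, and 6 to 21 and 4 to 14 with 1 library left out. The interaction called 0 to 1 members with 1 library left out. The causes were not tested.

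Counts that moved over 1.5 times without 1 library were, for members higher in DFL, 27 without 542 DFL replicate 1, 29 without 542 DFL replicate 2, 35 without 542 PFL replicate 1, 37 without wt DFL replicate 1, 32 without wt DFL replicate 2, 41 without wt PFL replicate 1, and for those lower, 51 without 542 DFL replicate 1, 41 without 542 DFL replicate 2, 66 without 542 FB replicate 1, 50 without 542 PFL replicate 1, 51 without 542 PFL replicate 2, 60 without wt DFL replicate 1, 63 without wt DFL replicate 2, 67 without wt FB replicate 1, 42 without wt PFL replicate 1, 50 without wt PFL replicate 2. For members higher in 542 they were 10 without 542 DFL replicate 1, 7 without 542 FB replicate 1, 8 without 542 FB replicate 2, 11 without 542 PFL replicate 2, 10 without wt DFL replicate 1, 12 without wt DFL replicate 2, 6 without wt FB replicate 1, 11 without wt FB replicate 2, 8 without wt PFL replicate 1, 11 without wt PFL replicate 2, and for those lower, 6 without 542 DFL replicate 1, 7 without 542 DFL replicate 2, 7 without 542 PFL replicate 2, 6 without wt DFL replicate 1, 5 without wt DFL replicate 2, 7 without wt FB replicate 1, 4 without wt PFL replicate 1, 6 without wt PFL replicate 2.

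Of 772 alternative values for the 36 promoters named for their differences, 705 kept direction and side of the threshold, 67 lost the call and 0 changed sign. These promoters were chosen as called with their groups of libraries apart, so leaving out 1 library could hardly change their sign. Among the transcription factor and Polycomb promoters some forebrain differences changed sign. By tags under the summit they were Bmi1 0.27, Pcgf1 0.21, Ring1 0.38, Pcgf5 0.13, Hoxa7 -1.48, Dlx1 0.48, Neurog2 1.2025, Pou3f2 1.49, Dlx6 0.40, Otx1 0.88, Msx1 -0.45, Sox9 0.43. By −log10 q they were Ring1 0.15, Pcgf5 0.018, Hoxa7 -0.82, Neurog2 0.86, Pou3f2 1.38, Dlx6 0.14, Otx1 0.75, Sox9 0.44, and without scaling Rnf2 0.16, Ezh2 0.12, Pcgf5 0.014. With the replicate number as a block, the counts were 823 and 2219 for forebrain, 54 and 79 for DFL and 20 and 10 for 542. Same-numbered replicates share a number only: the deviations of any 2 of them correlated between -0.045 and 0.028. Depth was lowest in 542 PFL replicate 2.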

Other observations

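The strength of a shared promoter and its spread went together as a description over members. Among the 1102 members with the lowest mean fold, 2.42 to 7.18, the median SD of the centred log2 fold was 0.21, and among the 1102 with the highest, 19.7 to 28.7, it was 0.088. Of the former, 104 were called higher and 276 lower in forebrain in limma, and of the latter 15 and 257, over all shared regions called at 13% and 20.1%.

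Motif matches at the start also went with strength. Members with the ETS letters had a median fold of 16.3 and those without 13.5, and for the CCAAT box the medians were 15.2 and 12.9. Members with a RONIN/ZNF143 match (ACTACAATT, 85 members) had the highest median of the 16 motifs, 17.1, and those with AP-1 letters (TGANTCA) the lowest, 12.6, against 13.7 over all members.

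The share of protein-coding genes with a member differed between chromosomes, from 45.8% on chromosome 7 to 71.5% on chromosome 12. Olfr94, the 1 olfactory receptor gene with a member, had a mean fold of 12.3. The region at Vmn1r4, the 1 vomeronasal receptor gene with a member, had 19.3 and also held the start of Nt5c3, an enzyme of nucleotide breakdown.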
